A study of Mus musculus with 66 samples.

Results

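The genes described here encode accessory structures of the mouse sperm tail, or are haploid germ cell genes studied with them. They are Akap3, Akap4 and Ropn1l of the fibrous sheath, Odf1 and Odf2 of the outer dense fibres, Smcp of the mitochondrial capsule, the antizyme gene Oaz3 and the fatty acid binding protein gene Fabp9. The 8 genes were listed by name, and every probe set was taken whose array annotation names one of them alone. This gave 14 of the 36899 probe sets, 10 on array type A, 0 on type B and 4 on type C, and they covered 7 of the 8 genes, of 15965 genes named alone by a probe set in all. No probe set named Akap3, so it has no measured value here. In probe set names, the suffixes _f, _r and _i mark sets designed under relaxed rules, and an _f set can match related sequences, so the _f sets of Odf1 and Fabp9 may include signal of such genes.

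The series profiled RNA of whole testes from BL/6-129 mice at 11 ages, days 0, 3, 6, 8, 10, 14, 18, 20, 30, 35 and 56 after birth. There were 2 numbered samples at each day on each of 3 oligonucleotide array types, A, B and C, which made 22 arrays per type. Whether a number stands for the same RNA on the 3 types is not in the labels. All mice were of the same background and no treatment is named, so age is the variable that differed by design. The labels do not say whether a sample was 1 animal or a pool, so p values measure the spread between these samples, which may be technical.

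A sperm tail is built around a microtubule axoneme. Along its length the axoneme is flanked by outer dense fibres, stiff keratin-like cables. In the midpiece the fibres are wrapped by mitochondria with a disulphide-linked capsule. In the principal piece they are wrapped by the fibrous sheath, a scaffold that anchors protein kinase A and enzymes of glycolysis. These structures are assembled in elongating spermatids, when chromatin is being compacted and many messages are made early and stored. In the juvenile mouse the germ cells advance as a first wave from spermatogonia through meiotic spermatocytes to round and then elongating spermatids.

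RefSeq promoter windows (GRCm38.p6, 250 bases before to 50 after a start) were found for 5 of the 8 genes, Akap3, Akap4, Ropn1l, Odf2 and Smcp. They are shown because Ropn1l and, by probe set 100626_at, Odf2 gained signal before day 30, and Akap4 and Smcp only by day 30. Another Odf2 probe set, 167956_at, had its onset (defined below) at day 30, and Akap3 has no measured course. A further reason is that the fibrous sheath genes Akap3 and Akap4 share a run of bases. Each sequence is the 120 bases upstream of a start, 5′ to 3′ on the gene's strand, at chr6:126852978-126853097 (+) for Akap3, chrX:7067395-7067514 (+) for the first of 2 Akap4 starts, chr3:92589074-92589193 (-) for Smcp, chr15:31453690-31453809 (-) for Ropn1l and chr2:29889600-29889719 (+) for the first of 4 Odf2 starts. Capitals mark TGATGTCA, which differs at 1 base from the cyclic AMP response element TGACGTCA and was searched for after the sequences had been seen.
Akap3: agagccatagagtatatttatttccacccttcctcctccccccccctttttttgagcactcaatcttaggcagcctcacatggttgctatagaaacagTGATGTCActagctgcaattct
Akap4: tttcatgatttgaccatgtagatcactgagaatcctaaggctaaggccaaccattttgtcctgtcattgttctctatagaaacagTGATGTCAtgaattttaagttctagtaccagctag
Smcp: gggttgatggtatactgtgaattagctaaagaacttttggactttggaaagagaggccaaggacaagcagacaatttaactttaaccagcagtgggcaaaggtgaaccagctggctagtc
Ropn1l: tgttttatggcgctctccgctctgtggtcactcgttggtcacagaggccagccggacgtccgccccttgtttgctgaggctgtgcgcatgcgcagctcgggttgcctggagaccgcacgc
Odf2: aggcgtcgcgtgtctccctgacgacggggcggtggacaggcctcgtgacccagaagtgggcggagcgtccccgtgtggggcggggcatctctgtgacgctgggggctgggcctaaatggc

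The promoters of Akap3 and of the first Akap4 start, which lie on chromosomes 6 and X, share the 20-base run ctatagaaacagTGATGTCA. It ends 15 bases before the Akap3 start and 28 bases before the first Akap4 start. The run was picked as the longest one shared by these windows, so both hold it by construction. Of 32851 promoter windows of 300 bases, 2 hold this run on either strand, those of Akap3 and Akap4. A run of this length can be rare by its length alone, so the count is no test. On either strand TGATGTCA was in 3.62% of all windows, TGACGTCA in 1.79% and TATAAA in 13.6%. Akap3 holds a further TGATGTCA across its start, and Smcp holds one from base 25 to base 32 after its start. None of the 9 windows of these genes holds TGACGTCA or TATAAA. The windows also differed in base composition. The first-start windows of Akap4, Smcp and Akap3 were 38.3%, 38% and 45.3% G and C with 0 CpG dinucleotides each. Those of Ropn1l and Odf2 (first start) were 58% and 68% G and C with 22 and 26 CpG, against a median of 52.7% and 7 CpG over all windows. The window of the second Akap4 start was 47% G and C with 1 CpG and holds no TGATGTCA. Its longest run shared with Akap3 was 10 bases, found in 43 windows. These are descriptions of letters in 5 genes, and no test was made of them or of a link to the time of the rise.

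Signals are in the arrays' own linear units, scaled by the authors to a mean of 125 on each array. A pair of libraries has to be named before the results. On array type A, some germ cell transcripts were higher on day 3 sample 1 and day 6 sample 2 than on the other early arrays. Prm1, the protamine of sperm chromatin, had a signal of 540.1 and 759 on them against 4.3 to 128.6 on the other 8 arrays of days 0 to 10. Ldhc, the lactate dehydrogenase of germ cells, had 184.6 and 60.6 against 1.6 to 9.7. Fabp9 (160729_f_at) had 115.9 and 72.5 against 5.6 to 25.5, and Odf1 (101968_at) had 90.6 and 109.1 against 38.1 to 66.8. Other germ cell genes did not follow on both. Hils1, a spermatid linker histone gene, had 5.4 and 9.2 against 2.4 to 11.6, Gapdhs had 31.9 and 65 against 24.9 to 49.4, and the transition protein gene Tnp1 had 225 and 361.7 against 130.6 to 225.2. Odf2 (100626_at) was at its lowest early value, 4.9, on day 6 sample 2. For Fabp9 this was 1.26% and 0.788% of the mean at day 56. With these 2 libraries left out, every count of called probe sets of these genes given below, and each onset day, was the same. The correlation between the samples of a day was lowest at day 0 on types A and C (0.93 and 0.83) and reached 0.98 and 0.95. At day 20 on type A it was 0.936, with a 3′ to 5′ signal ratio of actin of 1.12 in sample 1 and 1.75 in sample 2. Of the 14 probe sets, 12 reached a signal of 50 on 2 or more arrays and were tested. The low ones were Odf2 161262_r_at and Oaz3 170863_i_at.

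The 7 carried genes fell into 3 onset classes. Onset is the first day from which a probe set was called higher than at day 0 on that and every later day, where a call needs an adjusted p under 0.05 with 2-fold or more on the log2(signal + 16) scale (limma, Benjamini-Hochberg over all 26941 tested probe sets). Ropn1l and both probe sets of Fabp9 had their onset at day 14. Odf2 (100626_at) followed at day 18. Akap4, Odf1 (101968_at and 167642_f_at), Smcp, Oaz3 and the second Odf2 probe set 167956_at had theirs at day 30. Over all tested probe sets, 1.3% had their onset at day 14, 3.54% at day 18 and 3.88% at day 30. No samples were taken between day 20 and day 30, so the onsets at day 30 may lie anywhere in that gap.

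**Figure D1:**
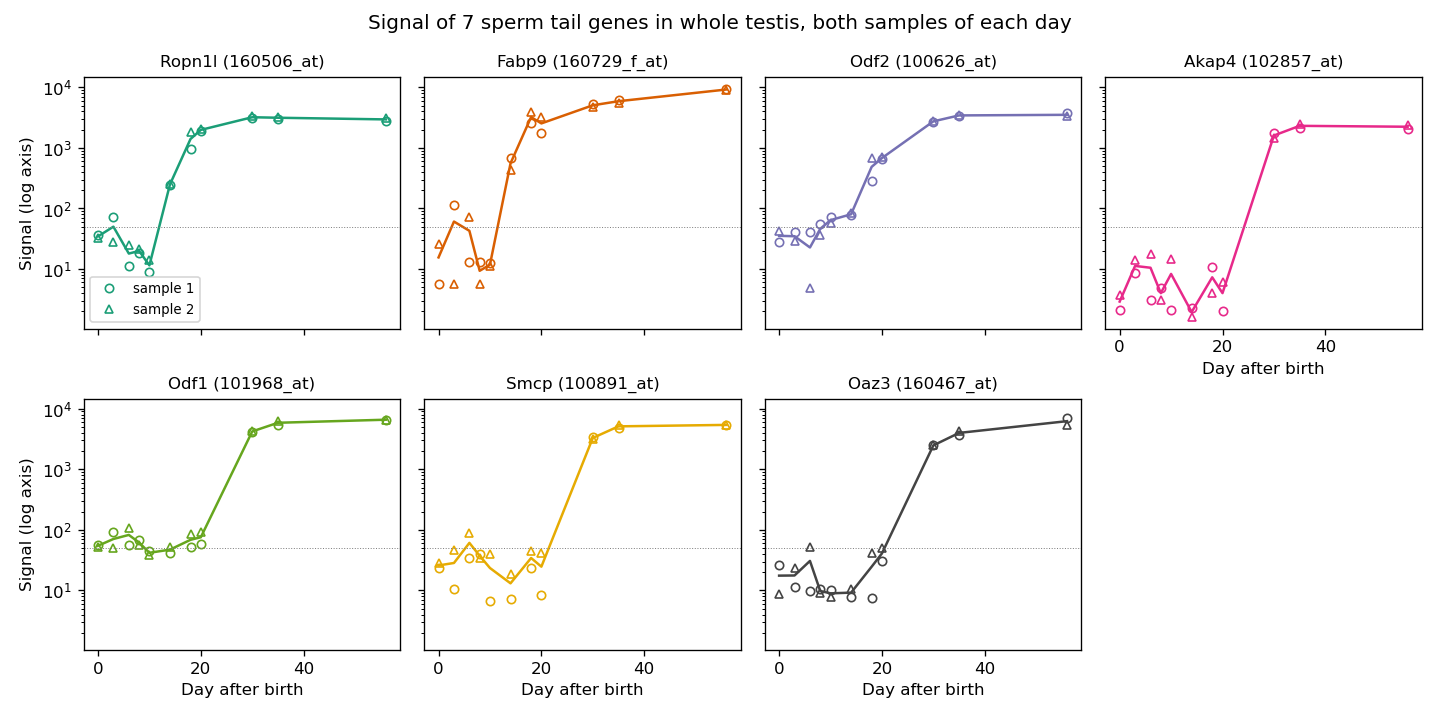
Signal (log axis) against day after birth for 1 probe set of each of the 7 genes, with circles for sample 1, triangles for sample 2, a line through the day means and a dotted line at a signal of 50. Ropn1l, Fabp9 and Odf2 climb from day 14 or 18, while Akap4, Odf1, Smcp and Oaz3 stay below 110 until day 20 and stand at 1446 or more from day 30.

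Counted by comparison with day 0, 3 of the 12 tested probe sets were called higher at day 14 (4.33% of all tested probe sets were called higher), 4 at day 18 (8.47%), 4 at day 20 (9.09%), 11 at day 30 (12.5%), 10 at day 35 (12.5%) and 10 at day 56 (12.5%). None of the 12 was called lower at these 6 days, when 3.52%, 8.58%, 11.3%, 16.3%, 17.3% and 17.3% of all tested probe sets were. The members that pass the filter on low signals mostly do so through their late arrays, so these counts describe the genes and are no test of them as a group. Tested for any difference among the 11 days, 11 of 12 were called (43.1% of all), and the exception was Odf1 140509_at. Every array of days 30 to 56 lay above every array of days 0 to 20 for 9 of the 12 probe sets (5.35% of all).

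Akap4 is the main structural protein of the fibrous sheath and tethers protein kinase A. Its gene lies on the X chromosome. Over the 10 arrays of days 0 to 10 its signal ranged from 2.1 through a median of 4.3 to 17.9. Over the 6 arrays of days 14 to 20 it ranged from 1.6 through 3.15 to 10.6. It was then 1757 and 1446 at day 30, 2138 and 2488 at day 35, and 2086 and 2384 at day 56. Both earlier groups overlapped and no early array came near the late ones. The step from day 20 to day 30 was 6.34 ± 0.29 on the log2 scale (adjusted p = 1.44e-10). At day 30 its mean was 69.2% of its highest day mean, that of day 35.

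Ropn1l encodes a ropporin-like protein that docks on the sheath's anchoring proteins through the same kind of domain as the kinase's regulatory subunit. It behaved unlike Akap4. Its signal was 8.8 to 72.2 (median 23.1) over days 0 to 10, then 243.6 and 255.6 at day 14, 959.9 and 1848 at day 18 and 1899 and 2063 at day 20. It was 3087 and 3329 at day 30, 3043 and 3250 at day 35 and 2736 and 3170 at day 56. Every array of day 14 was already above all earlier arrays. Ropn1l rose by 3.28 ± 0.31 from day 10 to day 14 (adjusted p = 2.05e-05) and by 2.34 ± 0.31 from day 14 to day 18 (adjusted p = 0.000187). From day 20 to day 30 the change was 0.69 ± 0.31 (adjusted p = 0.23). At day 20 the mean stood at 61.7% of its highest day, which was day 30. Ropn1, its close relative on array type B, had its onset at day 30, with a change of 0.27 from day 14 to day 18 and of 6.34 from day 20 to day 30. As these genes sit on different array types, the difference between them was not tested.

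Odf1 is a small, cysteine-rich major protein of the outer dense fibres. Its probe set 101968_at had 38.1 to 109.1 (median 56.3) over days 0 to 10 and 42.1 to 92.3 (median 55.9) over days 14 to 20. It read 4079 and 4352 at day 30, 5383 and 6342 at day 35, and 6559 and 6617 at day 56. The early and middle arrays overlapped fully, and every late array was far above them. The step from day 20 to day 30 was 5.56 ± 0.28 (adjusted p = 3.98e-10). On array type C, 167642_f_at gave 60.3 to 96.3 over days 14 to 20 and 2407 to 4880 over days 30 to 56, a step of 4.71 ± 0.28 (adjusted p = 2.4e-09). The third probe set, 140509_at, did not follow. Its median was 34.3 over days 0 to 10 and 37.7 over days 30 to 56, and its change from day 20 to day 30 was 0.93 ± 0.72 (adjusted p = 0.564). Its highest value, 177.9, was on day 3 sample 2 alone, against 39.8 on sample 1. That array had the highest 3′ to 5′ actin ratio of type C, 2.01.

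Odf2 is both a fibre protein and, as the isoform cenexin, a component of the mother centriole in many cell types. Its 4 probe sets gave 3 different courses. Probe set 100626_at ranged from 4.9 to 71.6 (median 40.3) over days 0 to 10 and read 77.7 and 82.7 at day 14, above every earlier array. It was 285.5 and 687.9 at day 18, 647.4 and 711.3 at day 20, 2657 and 2828 at day 30, and 3708 and 3325 at day 56. It therefore climbed in 2 steps, by 2.26 ± 0.38 from day 14 to day 18 (adjusted p = 0.00174) and by 1.99 ± 0.38 from day 20 to day 30 (adjusted p = 0.00302). With a pseudocount of 1 the second step was 2.01 (adjusted p = 0.0574). Day 14 differed from day 0 by 0.92 ± 0.38 (adjusted p = 0.155), and with signals floored at 32 the onset moved to day 14.

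Probe set 160970_at of Odf2 had a signal on all arrays, 75.8 to 162.6 over days 0 to 10, 151.6 to 268.5 over days 14 to 20 and 171.3 to 271.4 over days 30 to 56. The first group overlapped the second only through day 0 sample 2 and lay below the third. It was called over all days (adjusted p = 0.000847) with a largest difference between days of 1.36, and its change from day 0 was 1.1 ± 0.28 at day 30, the sole day at which it was called higher than day 0. It was not called at day 30 without day 0 sample 1, and without day 0 sample 2 its onset was at day 18. On type C, 167956_at lay between 6.1 and 11.6 on all arrays before day 30 except day 18 sample 1 (55.6), and between 124.8 and 185.3 from day 30, a step of 2.47 ± 0.41 from day 20 (adjusted p = 0.000612). The low probe set 161262_r_at never passed 14.3. Which transcripts each probe set detects is not given in the sources used here.

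**Figure D2:**
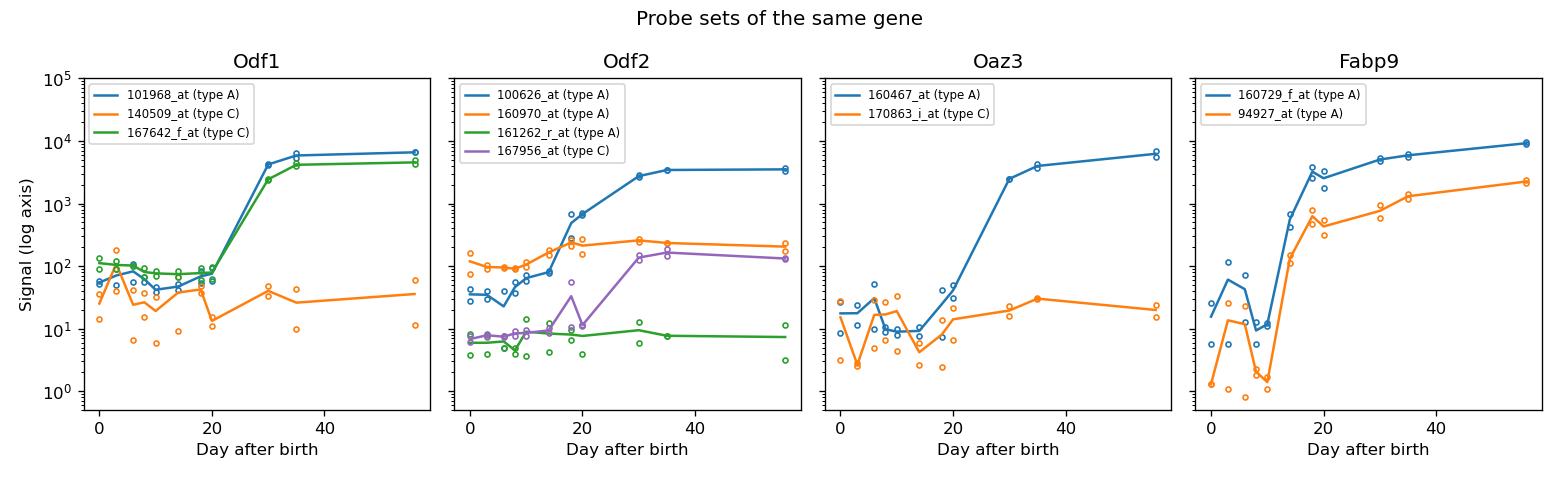
Signal (log axis) against day after birth for all probe sets of Odf1, Odf2, Oaz3 and Fabp9, with points for single arrays and lines through day means. Odf1 140509_at, Odf2 161262_r_at and Oaz3 170863_i_at stay low where other probe sets of the same gene are far higher from day 30, and Odf2 160970_at lies between 75.8 and 271.4 throughout.

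Smcp encodes a cysteine- and proline-rich protein of the capsule around sperm mitochondria. Its messenger RNA is a textbook case of delayed translation in spermatids. The signal was 6.8 to 87.6 (median 34.4) over days 0 to 10 and 7.3 to 45.1 (median 21.2) over days 14 to 20. It reached 3393 and 3190 at day 30, 4821 and 5412 at day 35, and 5483 and 5332 at day 56. No array before day 30 came within reach of the later ones. The step from day 20 to day 30 was 6.47 ± 0.47 (adjusted p = 3.34e-08). The change from day 35 to day 56 was 0.08 ± 0.47 (adjusted p = 0.991).

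Oaz3 encodes antizyme 3, the germ cell member of the antizymes, which bind ornithine decarboxylase and need a frameshift in translation. Probe set 160467_at gave 7.9 to 51.6 (median 10.4) over days 0 to 10 and 7.4 to 50.8 (median 20.8) over days 14 to 20. At day 30 it read 2480.1 and 2481.2, at day 35 it read 3704 and 4271, and at day 56 it read 7010.1 and 5456. The step from day 20 to day 30 was 5.48 ± 0.42 (adjusted p = 6.42e-08). The mean at day 30 was 39.8% of that at day 56, a lower share than for Akap4 (69.2% of its highest day), Odf1 (64%) or Smcp (60.9%). The step from day 35 to day 56 was 0.63 ± 0.42 and was not called (adjusted p = 0.796). The other probe set, 170863_i_at on type C, lay between 2.4 and 33.8 on all arrays and was below the filter.

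Fabp9, also known as a protein of the perforatorium under the acrosome, is a lipid binding protein of the testis rather than a tail component. Its 2 probe sets moved alike. Signals of 160729_f_at were 5.6 to 115.9 (median 12.8) over days 0 to 10, 687.9 and 424.3 at day 14, 2603 and 3850.4 at day 18, and 1781 and 3292 at day 20. They were 5279 and 4822 at day 30, 6269 and 5527 at day 35, and 9516 and 8897 at day 56. Every array from day 14 was above all earlier ones, and the highest early array was day 3 sample 1, named above. The step from day 10 to day 14 was 4.32 ± 0.61 (adjusted p = 0.00147) for this probe set and 3.07 ± 0.42 (adjusted p = 0.00109) for 94927_at. From day 14 to day 18 the changes were 2.51 ± 0.61 (adjusted p = 0.029) and 2.1 ± 0.42 (adjusted p = 0.00682). This second step of 160729_f_at was not called without either sample of day 14 or of day 18 (adjusted p = 0.0604 to 0.254). For 94927_at the call was lost when day 14 sample 2 (adjusted p = 0.0988) or day 18 sample 2 (adjusted p = 0.0787) was left out. With a pseudocount of 1 both were lost (adjusted p = 0.197 and 0.287).

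**Figure D3:**
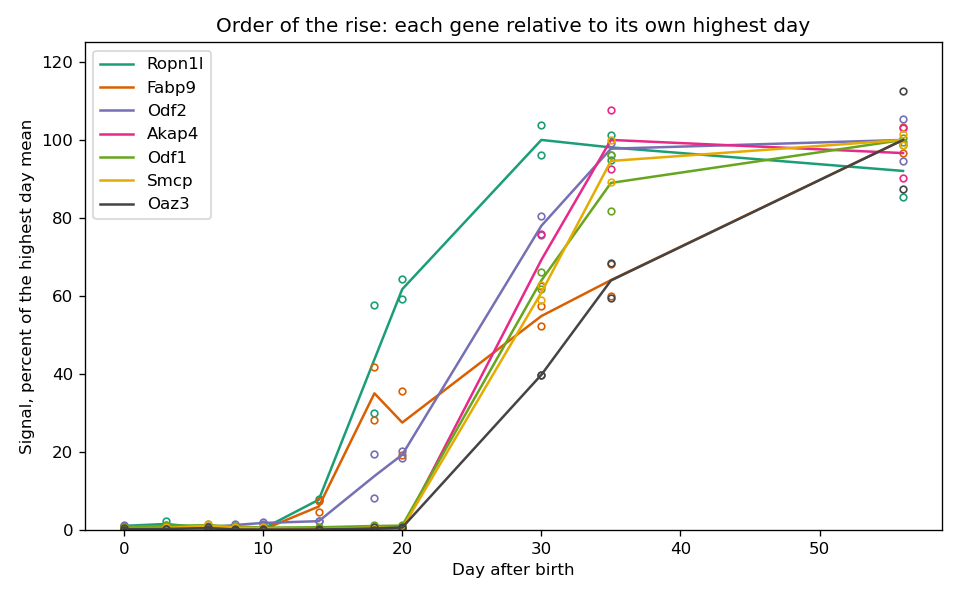
Day means (lines) and single arrays (points) of 1 probe set of each gene as a percent of that gene's highest day mean, against day after birth. At day 20 Ropn1l stands at 61.7%, Fabp9 at 27.6% and Odf2 at 19.3%, while Akap4, Odf1, Smcp and Oaz3 are at 1.15% or below.

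By step, 3 of the 12 tested probe sets were called higher from day 10 to day 14 (0.405% of all), 4 from day 14 to day 18 (2.57%) and 7 from day 20 to day 30 (3.59%). The median change of the 12 was 0.2, 0.66 and 2.23 in these steps, against -0.02, -0.09 and -0.1 over all tested probe sets. In the steps from day 18 to day 20, day 30 to day 35 and day 35 to day 56, 0 of the 12 were called higher in limma, with 0, 1 and 0 at an unadjusted p under 0.05 (0%, 0.00371% and 0% of all were called higher).

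**Figure D4:**
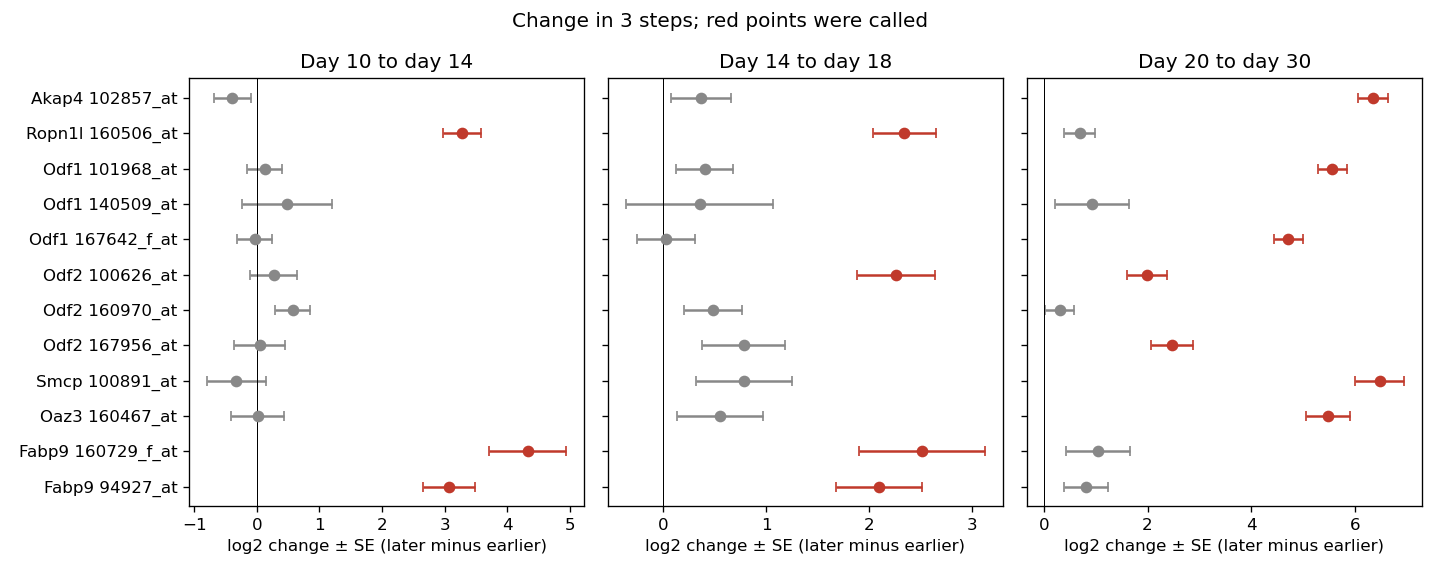
Change on the log2(signal + 16) scale with its SE for the 12 tested probe sets from day 10 to 14, day 14 to 18 and day 20 to 30, with called changes in red. Ropn1l and Fabp9 change in the first 2 panels and Odf2 100626_at in the last 2. Akap4, Odf1, Smcp, Oaz3 and Odf2 167956_at change in the last, where Odf1 140509_at is not called.

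The size of the later rise also differed between genes of different onset measured on the same arrays. The log2 ratio of the genes in each of 22 pairs was compared between the 6 arrays of days 14 to 20 and the 6 arrays of days 30 to 56. Onset classes came from these same arrays, so for pairs of different onset the shifts are given as a description with no test, and they measure unequal change between these periods, not timing. In the 12 pairs of Akap4, Odf1, Smcp or Oaz3 with Ropn1l, Fabp9 or Odf2, the ratio moved towards the first gene by 2.77 to 5.12 on the log2(signal + 16) scale. With a pseudocount of 1 these shifts were 2.98 to 6.92, and with 64 they were 1.82 to 4. The ratio of Ropn1l to Odf2 moved by -1.56 and that of Odf2 to Fabp9 by 1.37. On type C, the ratio of Odf1 (167642_f_at) to Odf2 (167956_at), both with onset at day 30, moved by 2.94 (exact two-sided permutation test over 924 splits, unadjusted p = 0.00216). Signals of this Odf2 probe set over days 14 to 20 were low, 8.5 to 55.6. Ropn1l and Fabp9 also share their onset day. Shared onset, too, was read from these same arrays, so p values of such pairs are descriptive. Their ratio was -0.87 ± 0.58 over days 14 to 20 and -1.06 ± 0.48 over days 30 to 56 (SD, n = 6 arrays each). The shift was -0.2 (exact two-sided permutation test over 924 splits, unadjusted p = 0.535, and p = 0.565 adjusted over the 22 pairs). Each group of 6 arrays spans several ages, so the SD mixes age with the spread between samples. The splits treat arrays of 1 day as exchangeable with those of other days, here and for the exact p values below.

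Akap4, Odf1, Smcp and Oaz3 share their onset day on type A. By the same exact test, 3 of their 6 pairs were under the threshold with the pseudocount of 16, and 4 of 6 with either 1 or 64. The adjustment also covered the pairs of different onset, whose small p values loosen it, so these counts are a description. With 16, the unadjusted exact p was 0.00216 for Odf1 with Smcp, 0.0152 for Akap4 with Odf1 and 0.0216 for Odf1 with Oaz3. Whether these pairs pass an adjustment over pairs of shared onset alone was not tested. The ratio of Odf1 to Smcp fell under all 3 settings. Its shifts were -0.78, -1.33 and -0.27 for pseudocounts of 16, 1 and 64 (exact permutation test, adjusted p = 0.00297, 0.00264 and 0.00529). Odf1 against Oaz3 gave -0.59, -1.18 and -0.07, the last of which was not called (exact permutation test, adjusted p = 0.0264, 0.00264 and 0.656). The sign of each shift of Akap4 turned with the pseudocount, to 0.52, 2.3 and -0.52 against Odf1, -0.26, 0.97 and -0.79 against Smcp, and -0.08, 1.12 and -0.59 against Oaz3. The shift of Smcp against Oaz3 was 0.19, 0.15 and 0.19 and was not called in any setting (exact permutation test, adjusted p = 0.565, 0.784 and 0.276). These shifts compare sizes of change, and the days sampled give no order of onset among the 4 genes.

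Other genes whose course was most like each member were named by their Pearson correlation over the 22 type A arrays, which all share the same ages and scaling. For Akap4 they were the selenoprotein gene Selenov, the protamine gene Prm3 and the receptor subunit gene Chrne (r = 0.995, 0.995 and 0.994). For Odf1 they were the acrosomal gene Acrv1, Prm3 and Gsg1 (0.997, 0.995 and 0.995). For Smcp they were the chromatin gene Hmgb4, the kinase gene Tssk2 and Apoh (0.99, 0.99 and 0.989), and for Oaz3 they were Stat4, Hmgb4 and the phosphodiesterase gene Pde1a (0.991 each). For Odf2 they were the chaperone genes Dnajc15 and Dnajb3 (0.986 and 0.981) and the deubiquitinase gene Usp2 (0.982). Ropn1l was nearest to the testis cytochrome oxidase subunit gene Cox6b2, the fructose bisphosphatase gene Fbp1 and Phf7 (0.993, 0.993 and 0.99), and Fabp9 to Ldhc, Clec2m and Phf7 (0.992, 0.983 and 0.982). Among the members themselves the correlation was 0.993 for Akap4 with Odf1, 0.993 for Odf1 with Oaz3, 0.983 for Ropn1l with Fabp9, and 0.701 for Akap4 with Ropn1l.

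A wider list of 50 gene names was chosen by hand around the sperm tail, and a place in a tail structure was not checked for each. It includes enzyme genes (Ldhc, Pgk2, Tpi1 and Hk1) and others such as Spag5 and Calr3. Ldhc and Gapdhs are also among the stage markers below. Of this list, 34 were carried and 32 were tested, 1 probe set a gene. At day 56, 23 were called higher than at day 0 and 2 lower, against 12.5% and 17.3% of all tested probe sets. The median change was 2.68 against -0.22. The other 7, Eno4, Tpi1, Odf3, Odf3b, Tsga10, Cabyr and Akap11, were not called and changed by -0.75 to 0.88. Genes of this list, too, can pass the filter through their late arrays, so the counts are no test of the list. The 23 called higher had onsets at day 14 (3 genes), day 18 (7), day 20 (1) and day 30 (12). The largest changes among them were those of Ldhc (9.05 ± 0.74, onset at day 14), the mitochondrial gene Spata19 (8.15 ± 0.49, day 30), the sheath-bound glycolytic enzyme gene Gapdhs (7.15 ± 0.33, day 30) and Ropn1 (7.15 ± 0.48, day 30). Next were Tcp11 (6.77 ± 0.3, day 18) and Pgk2, the germ cell phosphoglycerate kinase gene (6.02 ± 0.36, day 18). The cytoskeletal septin gene Septin7 changed by -1.36 ± 0.34 (adjusted p = 0.00459) and the hexokinase gene Hk1 by -1.55 ± 0.32 (adjusted p = 0.000955) in limma, both called lower.

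Summed signals of germ cell stage markers were higher on the later arrays, while somatic and spermatogonial sums were mostly lower. The summed signal of 6 elongating spermatid markers was 218 to 1342 on the arrays of days 0 to 10, 199 to 326 over days 14 to 20 and 28605 to 52401 over days 30 to 56. That of 6 round spermatid markers was 124.5 to 278.3, 174.4 to 1302 and 7483 to 13676.5. That of the 5 carried spermatocyte markers, of 6 listed, was 225.5 to 822, 3918 to 18376 and 14490.1 to 19248. These sums were carried by their brightest genes, and not all listed genes followed. Sycp1, of the meiotic chromosome axis, was 832.8 and 797 at day 14 and 213.8 to 359.3 over days 30 to 56. Sycp3 stayed between 9.9 and 102.5 and the acrosomal gene Spaca1 between 6.3 and 84.9 on all arrays. Crem, a spermatid transcription factor gene, had 107.2 and 85.6 at day 18 and 35.1 to 92.2 over days 30 to 56. From days 0 to 10 to days 30 to 56 the summed signal of 6 carried spermatogonial markers went from 811.2 to 3116 down to 529.9 to 667.8. For 5 peritubular myoid markers it went from 1728 to 3159 down to 516.5 to 691, and for 5 endothelial markers from 286.1 to 824.5 down to 77.7 to 186.5. For 10 Sertoli markers it went from 3813 to 7318 down to 2706 to 3145. The 7 carried Leydig markers overlapped, at 1095 to 3767 and 1743 to 2503.5. In whole testis a rise in the share of cells and a rise in RNA per cell cannot be told apart, and the part of cell numbers in these changes was not tested. For the testis label, 10 of 10 Sertoli and 7 of 7 carried Leydig genes reached a signal of 50 on 2 or more arrays. Of 10 epididymis genes 4 were carried, and 0 reached 50 on 2 arrays.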

How the data were processed

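Whole-testis RNA was measured on 3 array types, with 22 arrays of each, 2 numbered samples a day. The deposited values are 1 linear signal intensity per probe set and array, which the authors scaled to a mean of 125, per the labels' protocols. The trimmed mean of each array (2% off each end) was 125.02 to 125.1. The signal software and detection calls are not given in the sources used here. Probe sets were named from the platform annotation deposited for the arrays, updated by gene number, and 29131 of 36899 named 1 gene. Each type was fitted in limma 3.58.1 (R 4.3.3) on log2(signal + 16) with 11 day means, a shared spread (11 residual degrees of freedom) and a variance trend. The fit used the 26941 probe sets, controls aside, that reached a signal of 50 on 2 or more arrays of their type. The pseudocount of 16 understates the change of low signals. All tests were two-sided, changes are given ± SE, and their precision is limited by the number of arrays. Described genes were all probe sets of the members and the 3 nearest patterns of each. Of the wider list they were the 6 largest called changes and those called lower or not called. The genes and lists were chosen with earlier results of these data known. Alternatives were other pseudocounts, a floor, filters, normalizations, probe set choices, the sample number as a block and each sample left out. Promoter sequences are from RefSeq.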

Additional observations from a re-analysis of the deposited data

How the results depend on the processing

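Of 14 counts recomputed for these genes, their pairs and the wider list, all but 3 stayed within 1.5 times under every setting tried. The 4 probe sets called from day 14 to day 18 became 2 with a pseudocount of 1. Leaving out 1 sample gave 2 to 4, with 2 without day 14 sample 2 and without day 18 sample 2, both probe sets of Fabp9 being lost. With 1 probe set per gene the count was 7 over all days (of 11) and 7 at day 30 against day 0 (of 11), by construction, as 7 genes were then tested. No called change reversed. Of the onset days given, that of Odf2 100626_at was day 14 with signals floored at 32 and by a rule on levels alone. The number of probe sets with an onset day was 10 to 11 with 1 sample left out, and without day 0 sample 2 Odf2 160970_at gained one, at day 18. With the mean of days 0 to 10 in place of day 0, each onset day was as given. When arrays were scaled by their medians, the day 0 to day 56 change of the median probe set went from -0.22 to -0.04, and 0 of these genes were called lower from day 0 to day 56 under any scaling tried. Sample numbers are not described as linking days, so samples were not taken as pairs. Over the 55 pairs of days on type A the differences between samples 1 and 2 correlated from -0.21 to 0.55 (over 0.1 in 28). On type B they correlated from -0.01 to 0.39 (over 0.1 in 34) and on type C from -0.06 to 0.29 (over 0.1 in 23). Differences between the samples were thus shared in part by some days. With the replicate block the counts were 4 from day 14 to day 18 and 7 from day 20 to day 30, as without it. Leaving out day 3 sample 1 and day 6 sample 2 together, and each array in turn in the tests of pairs, were chosen after seeing the data. The latter gave 17 to 18 of 22 pairs under the threshold. That count is mostly made of pairs of different onset, which are described above with no test, so it supports no result.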

Other observations

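On type A, the signals of Prm1 on day 3 sample 1 and day 6 sample 2 were 3.34% and 4.69% of its mean at day 56, those of Tnp2, a transition protein gene, were 0.679% and 1.02%, and those of Ldhc were 1.79% and 0.587%. Among the genes of the tail, Ropn1l stood at 2.44% and 0.836%, Odf1 101968_at at 1.38% and 1.66% and Smcp at 0.196% and 1.62%. The labels give no reason for these values.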
